A study of Mus musculus with 42 samples.

Results

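The integrated stress response and the unfolded protein response were followed through 10 of their genes, Asns, Atf3, Atf4, Ddit3, Trib3, Chac1, Psat1, Hspa5, Herpud1 and Xbp1, in mouse liver during high-fat feeding. Each gene was taken from the probe sets that carry a single gene symbol, and each of the 10 had 1 such probe set among the 17989 genes of the value table. The mice were wild-type C3HeB/FeJ males, housed singly and sampled in the random-fed state, and the arrays, of Affymetrix's whole-transcript type, read total RNA of whole liver. The tested arrays came from mice on a high-fat diet (HFD): 8 arrays after 7 days at 15 weeks of age, 8 after 14 days at 16 weeks and 8 after 21 days at 17 weeks. The 18 control arrays came from mice on a low-fat diet (LFD) for up to 21 days, aged 15 to 17 weeks and treated as 1 group, since their labels do not split them by time. Replicates carry a number but no animal, so the p-values describe the spread between these samples, which may be technical in part.

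In the integrated stress response, kinases that sense amino acid shortage, misfolded protein in the endoplasmic reticulum (ER), viral RNA or low heme phosphorylate the translation factor eIF2-alpha. General translation then falls while that of the transcription factor ATF4 increases, and ATF4 acts with ATF3 and CHOP (the product of Ddit3) on genes of amino acid supply, redox balance and feedback. The unfolded protein response shares the PERK kinase with it and adds 2 further ER sensors, IRE1, which splices the Xbp1 transcript, and ATF6, which is cleaved into a transcription factor. Together they raise ER chaperones such as BiP (Hspa5) and degradation factors such as Herpud1, and the liver, which secretes most plasma proteins, relies on this machinery. The arrays read transcript levels, so eIF2-alpha phosphorylation, the translation of Atf4 and the splicing of Xbp1 were not measured.

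Among these genes, Asns, which encodes asparagine synthetase, had a lower mean in HFD livers at all 3 times, and the difference passed the test after 21 days of HFD. At that time its log2 level averaged 3.76 ± 0.32 in HFD livers (SD, n = 8) and 4.40 ± 0.47 in control livers (SD, n = 18), a 1.57-fold lower value. The call stood in 47 of 58 other fits, made under 16 other settings and with each of the 42 arrays left out. Of the fits that left out 1 array it stood in 37 of 42, and each loss came without an HFD 21 days array. Among the 16 settings it was lost, for example, with HFD arrays numbered 1 to 4 alone, with array weights and in a fit of the 2 groups alone. The other 9 genes passed the test at no HFD time, among them the ER stress genes Hspa5, Herpud1 and Xbp1 and the stress transcription factors Atf3, Atf4 and Ddit3. For Hspa5 the 95% limits of each difference lay within 1.5-fold of the control level. That held for 95.9%, 96.9% and 97.2% of all genes at 7, 14 and 21 days. Among other targets of ATF4 and CHOP, Fgf21, the gene of a liver hormone, rose at all 3 times.

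All 42 arrays entered a single limma model with 4 groups, and a gene was called when its Benjamini-Hochberg adjusted p over the 17989 genes was under 0.05. Values are log2 RMA levels (a summary of a gene's probes after background correction and normalization), and a level of 1 probe set cannot be set against that of another. The titles of the control and HFD 21 days arrays carry the word reanalysis and those of HFD 7 and 14 days do not, so for the earlier times diet cannot be told apart from whatever that word stands for. Time on HFD cannot be told apart from it either where 21 days is compared with 7 or 14 days, as in the F test over the 3 times. Within each HFD time the arrays numbered 5 to 8 stood apart from those numbered 1 to 4 in Malat1, an abundant nuclear RNA, with means of 9.05, 8.96 and 9.39 at 7, 14 and 21 days for numbers 5 to 8 and of 6.79, 6.19 and 6.97 for numbers 1 to 4. The labels do not say what the numbers share. Hepatocyte markers were above background in every group (12 of 12 genes). So were all 16 measured of 18 listed markers of the pancreatic acinar cell (digestive enzyme genes). Their mean level per array varied, from 3.50 to 9.07 at 7 days, 3.43 to 8.91 at 14 days, 3.34 to 6.15 at 21 days and 3.38 to 8.02 in controls. Of the 16, 0 were called at any HFD time. Results that these differences between arrays touch are given with and without them.

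Promoter letters of 5 genes are shown because they carry a match to elements through which the 2 pathways are known to act. Of the 4 genes with a match to the ATF4 element, Asns was called in these livers and Atf3, Chac1 and Herpud1 were not. The 250 bases before the RefSeq start of each gene (GRCm38.p6) were searched on both strands for CARE (TGATGNAA, the C/EBP-ATF element bound by ATF4), ERSE (CCAAT and CCACG with any 9 bases between them, the ER stress element bound by ATF6), ERSE-II (ATTGG and CCACG with any 1 base between them) and UPRE (TGACGTGG, bound by XBP1), of which no 2 matches overlapped in these genes. Capitals mark the match, on the gene's strand, 5′ to 3′.
Asns, CARE, chr6:7693210-7693247, minus strand: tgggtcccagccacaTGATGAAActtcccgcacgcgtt
Atf3, CARE on the opposite strand, chr1:191183421-191183458, minus strand: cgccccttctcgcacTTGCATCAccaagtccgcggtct
Chac1, CARE on the opposite strand, chr2:119351034-119351071, plus strand: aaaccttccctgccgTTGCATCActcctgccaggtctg
Hspa5, ERSE, chr2:34772010-34772058, plus strand: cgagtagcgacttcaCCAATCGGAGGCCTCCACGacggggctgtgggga
Herpud1, CARE on the opposite strand and then ERSE-II, chr8:94386302-94386402, plus strand: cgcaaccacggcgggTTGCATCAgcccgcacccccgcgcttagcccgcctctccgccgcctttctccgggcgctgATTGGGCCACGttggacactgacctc
The CARE match of Asns ended 16 bases before the start, against 103 bases for Atf3, 186 for Chac1 and 105 for Herpud1. All 10 genes had a promoter in the table (2 for Psat1). CARE stood in 4 of the 10 genes, and in 3.45% of 32851 promoters. ERSE stood in 1 gene and 0.113% of promoters, ERSE-II in 1 gene and 0.0304%, and UPRE in 0 genes and 0.563%. The counts are of genes and the shares are of promoters. The 10 genes were chosen as members of the 2 pathways, so a larger share among them is no result of these data. The matches describe letters in 1 window and do not show that a factor binds there. Elements outside the window or with other letters would be missed. Whether a match or its distance bears on a call was not tested.

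Over the 10 genes, 0 were called after 7 days of HFD, 0 after 14 days and 1, Asns, after 21 days, while limma called 1.4% of all genes at 7 days, 0.667% at 14 days and 0.7% at 21 days. At an unadjusted p under 0.05, 2 of the 10 passed at 7 days (Asns and Atf4), the same 2 at 14 days and 1 at 21 days (Asns), against 9.28%, 6% and 6.66% of all genes. The median log2 difference of the 10 was -0.04, 0.02 and 0.02 at 7, 14 and 21 days, beside -0.01, -0.00 and 0.01 for all genes. The 95% limits of the difference stayed within 1.5-fold either way for 9, 8 and 9 of the 10, against 95.9%, 96.9% and 97.2% of all genes. Asns exceeded that range at each time, and Trib3 did at 14 days, with an upper limit of 0.63 on the log2 scale.

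**Figure D1:**
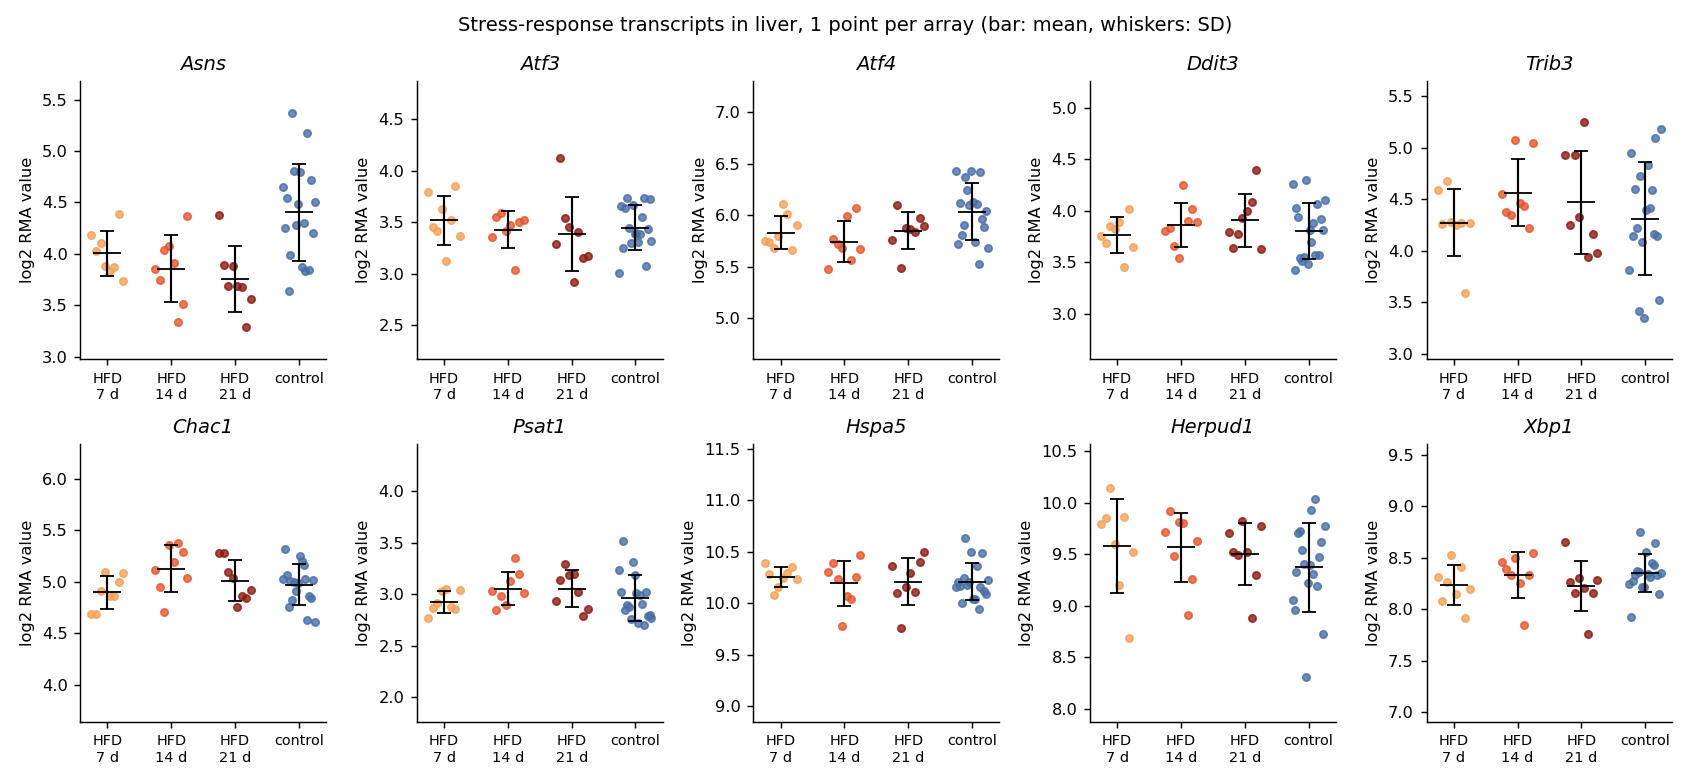
Log2 RMA level (y axis, the same span in each panel) of the 10 genes on each of the 42 arrays, by group (x axis); points are arrays, bars are group means and whiskers SDs. Asns points of the HFD groups lie below the control mean of 4.40, within the lower part of the control range and, on 2 arrays each at 14 and 21 days, below it. In the other panels most HFD points lie among the control points, with Atf4 on the lower side.

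**Figure D2:**
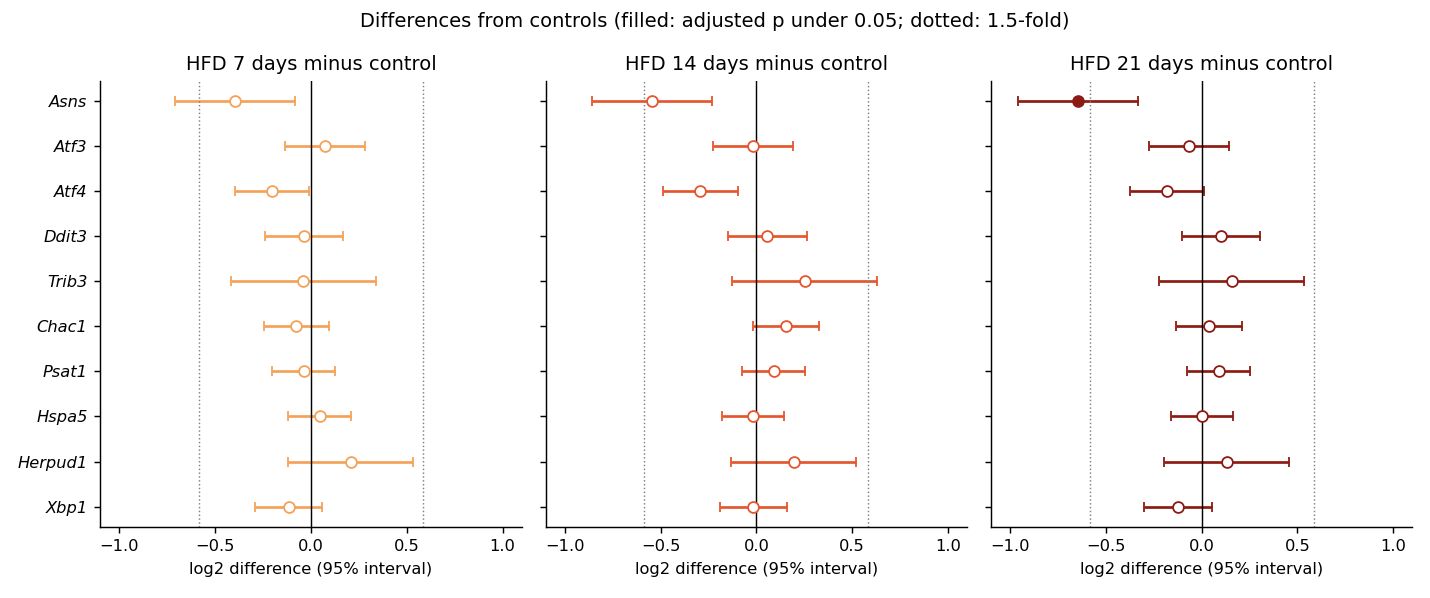
Log2 difference of each HFD time minus control (x axis) for the 10 genes (rows), with 95% limits from the limma fit; filled points have an adjusted p under 0.05 and dotted lines mark 1.5-fold. The only filled point is Asns at 21 days, at -0.65.

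ATF4 is the transcription factor at the centre of the integrated stress response, and much of its regulation is translational. Atf4 (probe set 10425364) spanned 5.66 to 6.10 (median 5.77) after 7 days of HFD, 5.48 to 6.07 (median 5.70) after 14 days, 5.49 to 6.10 (median 5.87) after 21 days and 5.52 to 6.43 (median 6.07) in controls. At each HFD time 7 of 8 arrays lay below the control mean, although the groups overlapped. The log2 differences from controls were -0.20 ± 0.10, -0.29 ± 0.10 and -0.18 ± 0.10 at 7, 14 and 21 days (SE), with limma adjusted p of 0.507, 0.319 and 0.793.

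ATF3 and CHOP are stress-inducible transcription factors downstream of ATF4, and CHOP is linked to cell death under prolonged ER stress. Atf3 (probe set 10361091) averaged 3.52 ± 0.24, 3.43 ± 0.18 and 3.38 ± 0.36 at 7, 14 and 21 days (SD, n = 8 each) and 3.44 ± 0.22 in controls (SD, n = 18). One HFD 21 days array, number 2, stood at 4.13, above every control array, and another, number 5, at 2.92, below every control array. Ddit3 (probe set 10366881) averaged 3.77 ± 0.17, 3.86 ± 0.21 and 3.91 ± 0.25 at the 3 HFD times and 3.81 ± 0.27 in controls. The HFD and control ranges of both genes overlapped, and their log2 differences lay between -0.06 and 0.10 with limma adjusted p of 0.874 or more.

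TRIB3 is a pseudokinase induced by ATF4 and CHOP that dampens ATF4 activity and binds AKT. Trib3 (probe set 10488608) spanned 3.59 to 4.68 (median 4.27) at 7 days, 4.22 to 5.08 (median 4.45) at 14 days, 3.94 to 5.25 (median 4.28) at 21 days and 3.35 to 5.18 (median 4.30) in controls. Its pooled SD within groups was 0.47, larger than that of 97.6% of genes (median of all genes 0.21), and the groups overlapped widely. The differences from controls were -0.04 ± 0.19, 0.25 ± 0.19 and 0.16 ± 0.19 (SE; limma adjusted p 0.964, 0.962 and 0.986). At 14 days 7 of 8 arrays lay above the control mean.

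Asns encodes the enzyme that makes asparagine from aspartate and glutamine, and it is a target of ATF4 under amino acid shortage. Its levels (probe set 10543067) spanned 3.74 to 4.39 (median 3.96) after 7 days of HFD, 3.34 to 4.37 (median 3.88) after 14 days, 3.29 to 4.38 (median 3.69) after 21 days and 3.64 to 5.37 (median 4.39) in controls. All 8 HFD arrays of a time lay below the control mean at 7, 14 and 21 days, which held for 3.2%, 2.32% and 0.856% of genes. For all 24 together it held for 21 genes (0.117%). Among the controls 9 of 18 lay below it too, so the groups overlapped, and 0, 2 and 2 HFD arrays at 7, 14 and 21 days lay below every control array. In whole liver, fewer cells that express a gene and less RNA per cell cannot be told apart.

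The log2 difference of Asns from controls was -0.40 ± 0.16 after 7 days (SE; limma adjusted p 0.317), -0.55 ± 0.16 after 14 days (adjusted p 0.116) and -0.65 ± 0.16 after 21 days (adjusted p 0.0253, 95% limits -0.96 to -0.33). Limma called 0.256% of genes lower at 21 days. The HFD times did not separate from each other for Asns: the difference was -0.25 for 21 against 7 days (95% limits -0.62 to 0.12, adjusted p 0.783), and the F test over the 3 times gave an adjusted p of 1. The call at 21 days was lost without any 1 of the HFD 21 days arrays numbered 3, 5, 6, 7 or 8 (adjusted p 0.051, 0.0587, 0.0531, 0.0962 and 0.0739), where the difference stayed between -0.64 and -0.58. Among other settings it was lost with only the controls numbered 10 to 18 (-0.60, adjusted p 0.112), with array weights (-0.60, adjusted p 0.199) and in a fit of the 2 groups alone (-0.65, adjusted p 0.0982).

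Asns had a positive slope on the acinar markers that did not pass the adjusted test. Within groups it was 0.12 ± 0.03 log2 units per unit of the acinar mean (SE; unadjusted p 4.4e-04, limma adjusted p 0.226), in a fit that called 0.172% of genes and 0 of the 10. The slope was 0.07 ± 0.03 over the HFD arrays and 0.21 ± 0.06 over the controls. With the acinar mean as a covariate, the Asns differences were -0.48, -0.61 and -0.59 at 7, 14 and 21 days (adjusted p 0.0578, 0.0116 and 0.0183), so the 14-day difference was then called. Without the arrays whose acinar mean was above 6 (3, 2 and 1 HFD arrays at 7, 14 and 21 days and 4 controls) they were -0.36, -0.53 and -0.51 (adjusted p 0.699, 0.317 and 0.247), and none was called. None of the 16 markers was called at any HFD time, but the medians of their mean level were 5.11, 5.31 and 4.08 at 7, 14 and 21 days and 4.32 in controls, so at 21 days it stood on the same side of controls as Asns, and its part in the Asns difference was not tested beyond these fits.

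**Figure D3:**
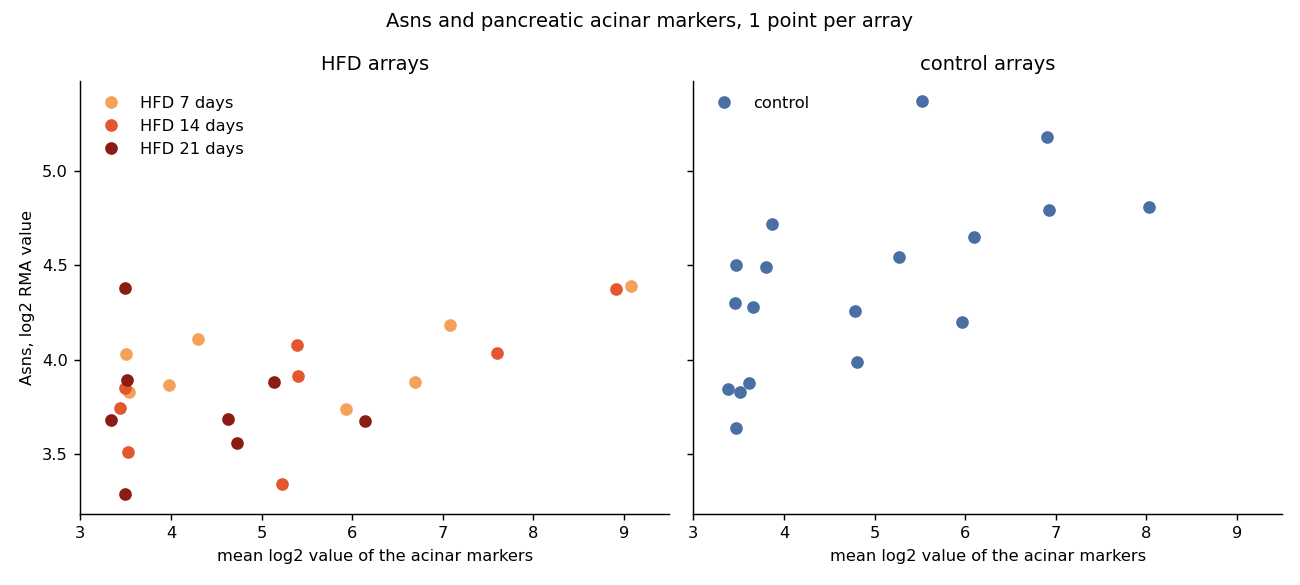
Asns level (y axis, log2 RMA value) against the mean log2 level of the acinar markers (x axis), 1 point per array, HFD arrays left and controls right. Controls with an acinar mean above 6 have Asns levels from 4.65 to 5.17, and HFD arrays with an acinar mean above 6 have levels from 3.68 to 4.39.

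Across the array numbers, Asns at 21 days averaged 3.55 ± 0.18 on arrays 5 to 8 and 3.96 ± 0.30 on arrays 1 to 4 (SD, n = 4 each). Against all controls the difference was -0.85 with arrays 5 to 8 alone (limma adjusted p 0.036) and -0.44 with arrays 1 to 4 alone (adjusted p 0.207). Its slope on Malat1 was -0.01 ± 0.04 (SE; adjusted p 0.91), and with Malat1 as a covariate the 21-day difference stayed at -0.65 (adjusted p 0.0216).

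Neither of the other metabolic genes, Psat1 and Chac1, was called. Psat1 (probe set 10466410), whose product catalyses a step of serine synthesis, sat at background: it averaged 2.92 ± 0.10, 3.05 ± 0.16 and 3.05 ± 0.18 at the HFD times (SD, n = 8 each) and 2.96 ± 0.23 in controls (SD, n = 18), beside a 95th percentile of 2.86 for 929 olfactory receptor genes taken as background. It exceeded that level on 6, 7 and 6 of 8 HFD arrays and on 11 of 18 controls, so little can be read from its differences, which ran from -0.04 to 0.09. The other 9 genes exceeded it on every array. Chac1 (probe set 10474972), which encodes an enzyme that degrades glutathione, averaged 4.90 ± 0.16, 5.13 ± 0.23 and 5.01 ± 0.20 at the HFD times and 4.97 ± 0.20 in controls, with ranges that overlapped. At 14 days 6 of 8 arrays lay above the control mean and 2 above every control, with a difference of 0.15 ± 0.08 (SE; limma adjusted p 0.903).

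Of the ER stress genes, Xbp1 (probe set 10374035), the transcription factor gene spliced by IRE1, averaged 8.23 ± 0.19, 8.33 ± 0.22 and 8.23 ± 0.25 at 7, 14 and 21 days (SD, n = 8 each) and 8.35 ± 0.18 in controls (SD, n = 18). Its total transcript lay below the control mean on 6, 4 and 7 of 8 HFD arrays, with ranges that overlapped and differences of -0.12, -0.02 and -0.12 (limma adjusted p 0.724, 0.998 and 0.911). Hspa5 (probe set 10471586), the gene of the ER chaperone BiP, averaged 10.25 ± 0.10, 10.19 ± 0.22 and 10.21 ± 0.23 at the HFD times and 10.21 ± 0.18 in controls. Its differences were 0.04, -0.02 and 0.00, and their 95% limits, from -0.18 to 0.21 over the 3 times, leave room for changes of less than 1.16-fold either way.

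Herpud1 (probe set 10574087), whose ER membrane protein serves the degradation of misfolded proteins, varied more. It spanned 8.68 to 10.14 (median 9.70) at 7 days, 8.92 to 9.92 (median 9.67) at 14 days, 8.88 to 9.83 (median 9.53) at 21 days and 8.31 to 10.04 (median 9.40) in controls. At each HFD time 6 of 8 arrays lay above the control mean, but the differences of 0.21, 0.19 and 0.13 ± 0.16 (SE) were not called (limma adjusted p 0.739, 0.971 and 0.986). Its pooled SD of 0.40 was larger than that of 94.7% of genes, against 35.3% for Hspa5.

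No member was called between HFD times, where limma called 0% of genes for 14 against 7 days, 0.00556% for 21 against 7 days and 0% for 21 against 14 days (2.51%, 7.13% and 3.97% at an unadjusted p under 0.05). The F test over the 3 times called 0.00556% of genes and 0 of the 10. Chac1 was the 1 gene of the 10 with an unadjusted p under 0.05 in any of these comparisons, 0.23 ± 0.10 higher at 14 than at 7 days (SE; limma adjusted p 1).

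Malat1 and the array numbers moved with many genes, and with a like or smaller share of these 10. The slope on Malat1 was called for 31.8% of genes and for 3 of the 10. It was -0.13 ± 0.04 for Herpud1 (SE, limma adjusted p 0.0122), 0.06 ± 0.02 for Hspa5 (adjusted p 0.0187) and 0.07 ± 0.03 for Atf4 (adjusted p 0.0351). Herpud1 and Hspa5 thus ran in opposite directions, and the third ER stress gene, Xbp1, had an uncalled slope of -0.04 (adjusted p 0.165). With quantile normalization the Hspa5 and Atf4 slopes kept their sign but were no longer called (adjusted p 0.054 and 0.0568), nor were they with each array centred on its median (adjusted p 0.074 and 0.0824). Those settings also added calls, of Xbp1 with quantile normalization (-0.07, adjusted p 0.0209) and of Atf3 with median centring (-0.07, adjusted p 0.0372). In the HFD arrays alone none of the first 3 was called. HFD arrays 5 to 8 minus 1 to 4 were called for 23.9% of genes and, of the 10, for Herpud1, at -0.38 ± 0.12 (SE; adjusted p 0.0264). Herpud1 averaged 9.32, 9.40 and 9.37 on arrays 5 to 8 and 9.85, 9.73 and 9.64 on arrays 1 to 4 at 7, 14 and 21 days. What Malat1 and the numbers stand for was not tested.

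**Figure D4:**
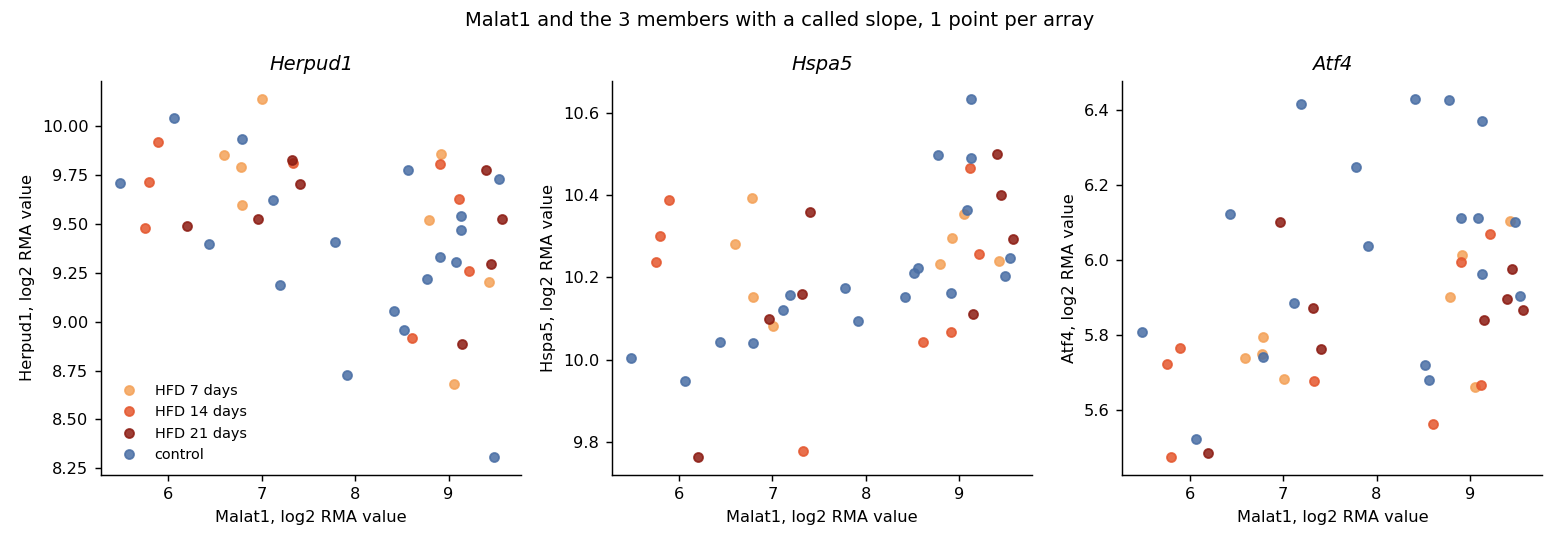
Herpud1, Hspa5 and Atf4 (y axes, log2 RMA value) against Malat1 (x axis, log2 RMA value), 1 point per array, coloured by group. Herpud1 tends to lie lower, and Hspa5 and Atf4 higher, on arrays with more Malat1.

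The wider pathway was described by lists of its other genes. Of 24 measured of 29 listed other targets of ATF4 and CHOP, 1 was called at each HFD time, in each case Fgf21 and upward, where 1.16%, 0.506% and 0.445% of all genes were called upward. The list medians were 0.09, 0.05 and 0.05. Fgf21, a fasting hormone that is a target of PPAR-alpha as well as ATF4, spanned 5.87 to 6.87 (median 6.22) at 7 days, 5.55 to 6.86 (median 6.01) at 14 days, 5.64 to 7.13 (median 6.03) at 21 days and 4.51 to 5.79 (median 5.16) in controls. At 7 days all 8 arrays exceeded every control array, and at 14 and 21 days 5 and 6 of 8 did. The share of all genes with such counts was not computed. Its differences were 1.12 ± 0.16, 0.83 ± 0.16 and 1.03 ± 0.16 (SE; limma adjusted p 4.58e-06, 0.00194 and 5.74e-05), opposite in sign to those of Asns. At 14 days the Fgf21 call was lost, among other settings, with HFD arrays 1 to 4 alone (0.73, adjusted p 0.0967).

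Among 14 measured of 18 listed eIF2 kinases, eIF2 and eIF2B subunits and phosphatase subunits, 0 were called at any HFD time. Counts at an unadjusted p under 0.05 were 2, 2 and 1, against 9.28%, 6% and 6.66% of all genes. Nearest was Eif2ak3, which encodes PERK and is counted among the ER stress sensors too: it averaged 5.18 ± 0.29, 5.07 ± 0.21 and 4.82 ± 0.37 at 7, 14 and 21 days (SD, n = 8 each) and 4.77 ± 0.27 in controls (SD, n = 18). Its difference was 0.40 ± 0.12 at 7 days (SE; limma adjusted p 0.0776) and 0.04 ± 0.12 at 21 days (adjusted p 0.995), and the 7-day value was called in 5 of 16 other settings that leave out no single array. At 21 days the smallest p of this list was that of Impact, the gene of an inhibitor of the kinase GCN2, at 0.27 ± 0.12 (SE; adjusted p 0.659). Of the ER stress sensors and their relatives 0 of 12 measured of 13 listed were called. The smallest p beside Eif2ak3 was at 14 days that of Creb3l2 (0.24, limma adjusted p 0.528) and at 21 days that of Creb3l3 (0.27, adjusted p 0.714), both genes of ER-bound transcription factors.

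Of 16 measured of 21 listed cytosolic aminoacyl-tRNA synthetases, counted with the tRNA export factor Xpot, 1 was called at 7 days, where 1.16% of all genes were called upward, and 0 at 14 and 21 days. That gene was Xpot itself, 7.14 ± 0.20, 7.07 ± 0.23 and 7.01 ± 0.25 at the HFD times (SD, n = 8 each) and 6.70 ± 0.25 in controls (SD, n = 18), with differences of 0.45, 0.38 and 0.32 (limma adjusted p 0.00628, 0.0644 and 0.207). It lay above the control mean on 8, 7 and 7 of 8 HFD arrays. The 7-day call was lost without the arrays of high acinar mean (0.44, adjusted p 0.119), with HFD arrays 5 to 8 alone (0.36, adjusted p 0.365) and with controls 10 to 18 alone (0.32, adjusted p 0.232). None of the synthetases was called. Of 9 measured of 10 listed genes of serine, one-carbon and proline synthesis 0 were called. With an unadjusted p under 0.05 there were 2, 1 and 1, against 9.28%, 6% and 6.66% of all genes. Shmt1, a serine hydroxymethyltransferase, stood at 0.26 ± 0.09 at 7 days (SE, limma adjusted p 0.216) and 0.23 at 21 days (adjusted p 0.541). Mthfd1l, of mitochondrial one-carbon metabolism, stood at 0.21 at 14 days (adjusted p 0.502).

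Among 24 measured of 29 listed ER chaperones and folding enzymes 0 were called. Counts at an unadjusted p under 0.05 were 4, 3 and 3, against 9.28%, 6% and 6.66% of all genes. Sdf2l1, an ER protein of chaperone complexes with BiP, averaged 6.38 ± 0.25, 6.21 ± 0.47 and 6.42 ± 0.47 at 7, 14 and 21 days (SD, n = 8 each) and 6.90 ± 0.48 in controls (SD, n = 18). At 14 days 5 of 8 arrays lay below every control array, a count for which no share of all genes was computed. Its differences were -0.51, -0.69 and -0.48 ± 0.18 (SE; limma adjusted p 0.212, 0.0569 and 0.457), and the 14-day value was called in 6 of 16 other settings that leave out no single array. Pdia5, a protein disulfide isomerase, had differences of -0.44, -0.43 and -0.36 ± 0.14 (SE; adjusted p 0.152, 0.341 and 0.541). The list medians were 0.04, -0.04 and -0.06.

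Of 25 measured of 30 listed genes of ER-associated degradation, translocation and secretion 0 were called. With an unadjusted p under 0.05 there were 2, 0 and 2, against 9.28%, 6% and 6.66% of all genes. The smallest p was that of Derl2 at 7 days (0.22), of Sec31a, a COPII coat gene, at 14 days (0.35) and of Sec63, a translocation gene, at 21 days (-0.40), with limma adjusted p of 0.515, 0.917 and 0.485. Of 11 measured of 12 listed mitochondrial chaperones and proteases 0 were called. Counts at an unadjusted p under 0.05 were 1, 1 and 0, against 9.28%, 6% and 6.66% of all genes. In this list the smallest p was that of the protease gene Clpp at 7 and 14 days (-0.24 and -0.21, adjusted p 0.416 and 0.813). At 21 days it was that of the co-chaperone gene Grpel1 (0.12, adjusted p 0.894). Of 9 measured of 12 listed cytosolic heat shock genes 1 was called at 7 days, against 1.16% of all genes upward, and 0 later: Hspa8, a constitutive HSP70 chaperone, rose by 0.41 ± 0.11 (SE; limma adjusted p 0.0467), with all 8 arrays above the control mean, and it kept that call in 7 of 16 other settings that leave out no single array and in 17 of the 42 fits that each leave out 1 array (adjusted p up to 0.148). Its difference at 14 days was 0.23 (adjusted p 0.811), and at 21 days the smallest p was that of Hsph1, an HSP110 gene, at 0.32 (adjusted p 0.686). Of 15 measured of 17 listed immediate early genes, which respond within minutes to handling and stress, 0 were called at any time. At an unadjusted p under 0.05 there were 1, 0 and 0, against 9.28%, 6% and 6.66% of all genes. Jun, a component of AP-1, was nearest, at 0.46 ± 0.15 at 7 days (SE; adjusted p 0.145), with Btg2 at 0.16 at 14 days (adjusted p 0.958) and Zfp36 at 0.23 at 21 days (adjusted p 0.861). Beside these lists, 3 of 10 measured Kupffer cell markers were called higher at 7 days (Vsig4, C1qc and Cd68, at 0.64, 0.46 and 0.44), against 1.16% of all genes, and 0 later, and their part in the 7-day values was not tested.

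**Figure D5:**
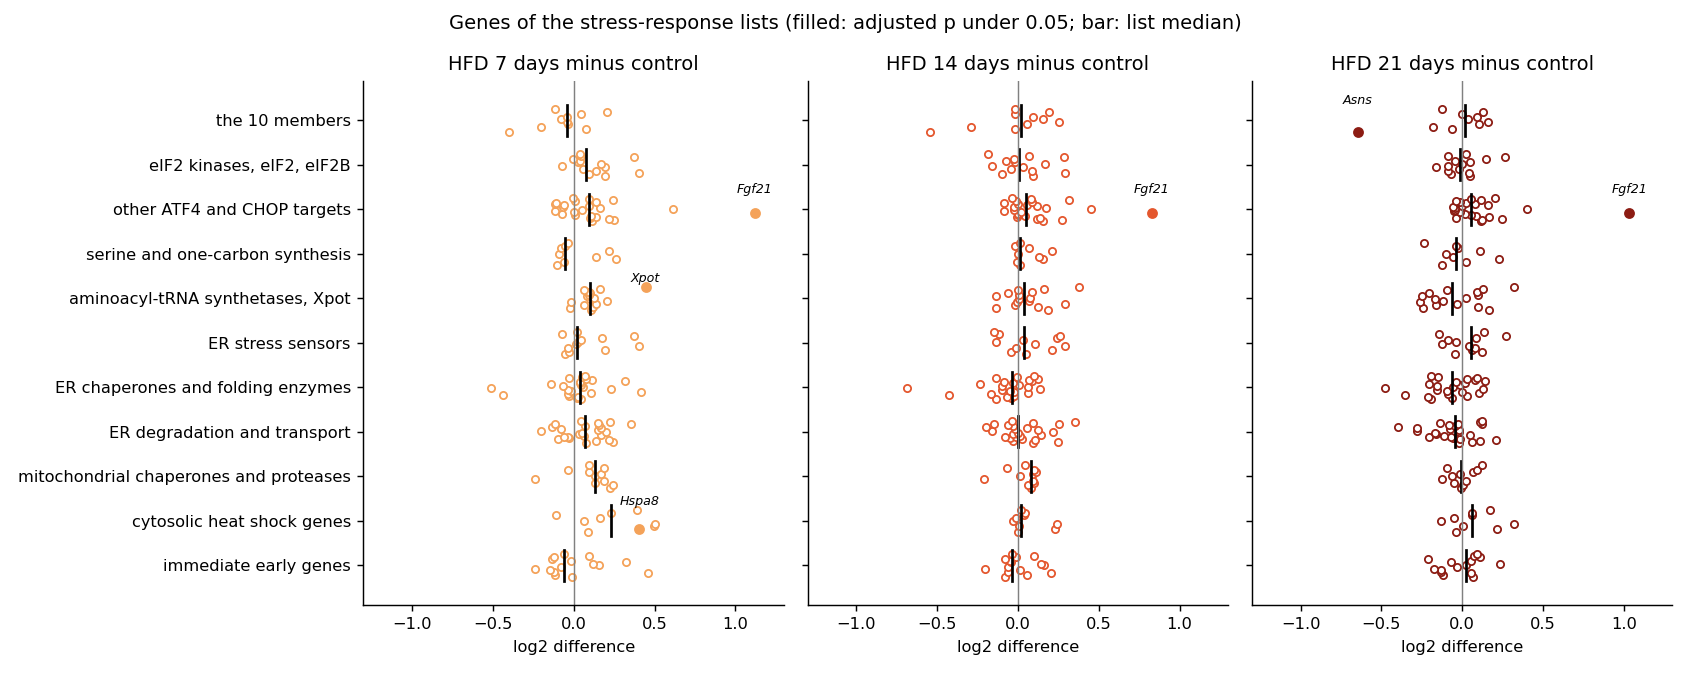
Log2 differences of each HFD time minus control (x axis) for the genes of each list (rows), 1 point per gene; filled points have an adjusted p under 0.05 and black bars are list medians. Fgf21 is filled at 3 times, Xpot and Hspa8 at 7 days and Asns at 21 days.

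Likeness was measured as Pearson's r over the 42 arrays, on levels with the group mean removed, against 11482 named genes above background. Asns was most like Trp53i13 (0.57), Zg16 (0.56) and Cela3b (0.53), of which Zg16 and Cela3b encode proteins of pancreatic zymogen granules. Herpud1 was most like Mavs (0.88), Pck1 (0.87) and Slc38a3 (0.86), where Pck1 encodes a gluconeogenic enzyme and Slc38a3 an amino acid transporter. Hspa5 was most like Acsl4, Caprin1 and Slc33a1 (0.78 each), Xbp1 most like Eif3d (0.78), Trib3 most like Bmf (0.71), Chac1 most like Pim3 (0.66), Atf3 most like C1ql2 (0.64), Atf4 most like Dnph1 (0.61), Ddit3 most like Lilrb4a (0.58) and Psat1 most like Plekhd1 (0.71). The 95th percentile of r over all genes was 0.26 for Asns and 0.66 for Herpud1, so a high r was common for Herpud1. None of the 10 was among the 3 most like genes of another. Among the 45 pairs of the 10, r was highest for Herpud1 with Xbp1 (0.58) and lowest for Atf4 with Trib3 (-0.54), and 0.37 for Asns with Atf4. Xbp1 ranked only 1083 of 12147 genes in likeness to Herpud1, below its 95th percentile of r. For Asns with Atf4, r was 0.22 without the 2 arrays farthest from the median of Asns. Within single groups it ran from -0.76 to 0.69. The arrays share the differences in acinar markers and Malat1 given above, and these values are descriptions of the 42 arrays with no test.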

How the data were processed

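The authors deposited log2 values. They used RMA in Affymetrix Expression Console 1.1, per the submitters' processing notes, which name no genome build. RNA extraction used a miRNeasy kit with DNase, per the labels' protocols. The value table has 32624 probe sets, of which 19559 map to 1 symbol, 1469 to several and 11596 to none listed here. For the 841 genes that had more probe sets than 1, the brightest was taken. One probe set with missing values was dropped. No array was scaled again: array medians lay between 3.08 and 3.28. No 2 arrays were copies (the smallest SD of a difference between 2 was 0.197). Arrays have no read depth, so their number limits precision.

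Fits used limma 3.58.1 (lmFit and eBayes, R 4.3.3), 2-sided, with no replicate block, and were tested on simulated data. Slopes on the acinar mean or on Malat1 came from fits with group as a factor. Replicate numbers did not pair HFD arrays with controls: the deviations of same-numbered arrays correlated above 0.1 in 3, 2 and 1 of 8 pairs at 7, 14 and 21 days. Between HFD 14 and 21 days all 8 pairs did, from 0.12 to 0.55, and 5 of 8 did between 7 and 14 and between 7 and 21 days. For 21 against 14 days limma called 0 genes with or without the block, so it had no call to change.

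The 10 genes, the lists and the markers were chosen with earlier results of these data known. All 10 are named whatever their result. Of each other pathway list, up to 3 called genes per comparison with the largest difference were to be named, or with none called the 1 with the smallest p. This is kept for the comparisons with controls. Between HFD times list genes are not named. Some genes so named are given at the other HFD times too. The slope fits of Malat1 under other scalings and subsets, and the fit with acinar mean and Malat1 together, were added after the data were seen. Promoters are those of RefSeq (GRCm38.p6).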

Additional observations from a re-analysis of the deposited data

Results flagged for a closer look

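Of 30 sets of 8 values (10 genes at 3 HFD times), 3 held an array far from the others of its group by Dixon's criterion, where chance gives about 1 in 20 sets. On array 6 of HFD 14 days, Atf3 stood at 3.03, with the next value at 3.36, and Xbp1 at 7.85, with the next at 8.26. The same array was the lowest of its group for Asns (3.34) and Herpud1 (8.92) and the highest for Chac1 (5.37) and Psat1 (3.35). On array 7 of HFD 7 days, Trib3 stood at 3.59, with the next value at 4.25, and the same array was the lowest of its group for Atf4 (5.66), Herpud1 (8.68) and Xbp1 (7.91) and the highest for Asns (4.39), Atf3 (3.85) and Ddit3 (4.02), and it had the highest acinar mean of all arrays (9.07). Without array 6 the 14-day differences from controls were 0.04 for Atf3 and 0.05 for Xbp1, and without array 7 the 7-day difference of Trib3 was 0.06, and 0 of these were called.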

How the results depend on the processing

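Over the 10 genes and 3 HFD times, 1740 values were computed again, under 16 other settings and with each of the 42 arrays left out. Of these 1725 stayed on their side of the threshold, 11 lost and 4 gained a call, 0 called values changed sign, and 73 uncalled values did. Each changed call was of Asns. Leaving out 1 array gave 0 to 1 called genes of the 10 at 14 days (1 without control 4, Asns at -0.59, adjusted p 0.0424) and 0 to 1 at 21 days, with an adjusted p of Asns from 0.00877 to 0.0962. Over all genes it gave 195 to 273, 81 to 126 and 107 to 131 calls at 7, 14 and 21 days, against 251, 120 and 126 with all arrays.

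With a replicate block, 0 of the 10 were called at 21 days (Asns -0.68, adjusted p 0.104), 77 genes were called at 14 days and 0 for 21 against 7 days (1 without it). The block also ended the Hspa8 call at 7 days (adjusted p 0.243) and the Fgf21 call at 14 days (adjusted p 0.0502). Of the 10, 0 were called at 21 days also in the fit of the 2 groups alone, with array weights, without arrays of an acinar mean above 6, with HFD arrays 1 to 4 alone and with controls 10 to 18 alone. At 14 days 1 of the 10 (Asns) was called with the acinar mean as a covariate, and at 7 and 14 days 1 each (Asns) with acinar mean and Malat1 together, where 394 genes were called at 7 days. Array weights gave 605 and 193 calls at 7 and 14 days, leaving out arrays of an acinar mean above 6 gave 119 and 67, and controls 10 to 18 alone gave 61 and 71 at 14 and 21 days. HFD arrays 1 to 4 alone gave 69 and 903 calls at 14 and 21 days, and arrays 5 to 8 alone 144, 58 and 349 at 7, 14 and 21 days. Quantile normalization gave 0 calls for 21 against 7 days, and at 7 days 156 higher and 63 lower calls, against 208 and 43 (253 and 27 with median centring). For arrays 5 to 8 minus 1 to 4, 4293 genes and 1 of the 10 were called, against 332, 247 and 2268 genes and 0 of the 10 within 7, 14 and 21 days alone, and 10 genes and 0 of the 10 with Malat1 as a covariate. There 3 of the 10 were called with quantile normalization (Ddit3 and Xbp1 beside Herpud1) and 2 with the acinar mean as a covariate (Atf3 beside Herpud1). With Malat1 as a covariate Herpud1 stood at -0.79 ± 0.43 (SE), against -0.38 ± 0.12 without it. The Malat1 ranges of arrays 5 to 8 and 1 to 4 did not overlap at any HFD time. That fit therefore cannot separate Malat1 from the array numbers, and its fewer calls do not show that Malat1 accounts for the difference. The slope on Malat1 was called for 5715 genes and 3 of the 10, against 1396 genes and 1 in controls alone and 3634 genes and 0 in HFD arrays alone. The fits of subsets hold fewer arrays; the cause was not tested otherwise.

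Levels near background limit what Psat1 can show. What the word reanalysis stands for is not in the labels, so 7-day and 14-day differences cannot be told apart from it. Neither can differences of HFD 21 days from 7 or 14 days. The labels also leave out what the array numbers share and the age of each control, and no HFD time was set against controls of its own age. In whole liver, cell makeup and RNA per cell cannot be told apart.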

Other observations

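The genes whose spread was most like that of Herpud1, Hspa5 and Trib3 were not called at any HFD time. Over all genes 1.4%, 0.667% and 0.7% were called at 7, 14 and 21 days, so most genes would give this outcome. Pck1, the gluconeogenic gene most like Herpud1 after Mavs, had log2 differences from controls of 0.27, 0.21 and 0.06 at 7, 14 and 21 days (limma adjusted p 0.749, 0.978 and 0.995). Acsl4, an acyl-CoA synthetase for polyunsaturated fatty acids and the gene most like Hspa5, had -0.06, -0.17 and -0.30 (adjusted p 0.895, 0.954 and 0.393). Bmf, a pro-apoptotic BCL2 family gene and the most like Trib3, had -0.03, 0.39 and 0.26 (adjusted p 0.97, 0.727 and 0.903).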
